A study of Drosophila melanogaster with 24 samples.

Results

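Neuropeptides are short signals that neurons and endocrine cells release to set the state of whole circuits, and their receptors are mostly G protein-coupled receptors on the receiving cells. The set described here holds 50 genes of Drosophila melanogaster, 27 encoding neuropeptide precursors and 23 encoding neuropeptide receptors, among 17684 annotated genes on the 6 main chromosome arms. A peak of open chromatin was assigned to a gene when it overlapped the gene body extended by 1 kb on each side. By this rule 46 of the 11145 peaks belonged to the set, 14 at neuropeptide genes and 32 at receptor genes. Chromatin was profiled by ATAC-seq, in which a transposase inserts sequencing adapters where DNA is open, in brains of adult female flies. The wild-type strain OreR was set beside 3 mutants, H3.3H3.2, H3.3S31A and H3.3null, in females aged 1 or 10 days since eclosion (when the adult emerges), with 3 libraries in each of the 8 groups. By their names, H3.3null lacks the replacement histone H3.3, H3.3H3.2 supplies histone H3.2 instead, and H3.3S31A has alanine in place of serine 31 of H3.3. The series title sets the amount of histone H3 against the choice between H3.2 and H3.3. OreR is a stock of its own, the sample labels do not say how the alleles were made, and no mutant stock restored to wild-type H3.3 was analysed here, so genetic background and H3.3 genotype cannot be told apart.

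A neuropeptide gene is usually transcribed in few brain cells, and its precursor is cleaved and amidated in dense-core vesicles before release. Receptor genes tend to be expressed more widely and at low level, which lets a small group of peptide cells reach many targets. In the fly brain these pairs serve sleep and circadian timing (PDF and its receptor Pdfr) and feeding (NPF, sNPF, allatostatin A, leucokinin). They also serve mating and arousal (SIFamide, tachykinin) and memory (amnesiac). ETH, Eh, CCAP, bursicon and its receptor rk serve the moulting and wing-expansion programmes around eclosion.

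Libraries held 3021672 to 4890579 counts in peaks, and log2 normalised counts of libraries within a group correlated at 0.956 to 0.982 across peaks. At His3.3B, one of the H3.3 genes, the peak chrX:9154788-9155165 held 43 to 60 counts per library in H3.3null and 118 to 245 in the libraries of the other 3 genotypes. At His3.3A, the second H3.3 gene, 1 of 2 peaks (chr2L:5055623-5055921) held 47.7 ± 8.92 CPM (normalised counts, scaled to a common library total) in H3.3null against 22.8 ± 4.45 for OreR at day 1 (SD, n = 3). The 34 peaks at 6 of 7 neuronal marker genes (elav, nSyb, brp, Syt1, para and Rdl, with none at Syx1A) summed to 3689 to 4248 CPM per library over all groups. The 9 peaks at 5 of 6 glial marker genes summed to 499 to 664 CPM, muscle and haemocyte marker genes had 0 peaks, and fat body marker genes had 3 peaks that summed to 96.5 to 134 CPM. At day 1 the fat body sum was 97.4 to 103 CPM in OreR and 108 to 119 in H3.3null, 110.5 to 114.5 in H3.3H3.2 and 108 to 125 in H3.3S31A, all above OreR, and 1 of the 3 peaks was called higher in H3.3null and in H3.3S31A at both ages. The glial sum at day 1 was 602 to 664 CPM in H3.3H3.2 and 569 to 599 in OreR, and the sum of 6 peaks at photoreceptor marker genes at day 10 was 278 to 290.1 CPM in H3.3null and 301 to 315 in OreR, without overlap. At the other age each of these sums overlapped OreR. The fat body sum of OreR at day 10 was 96.5 to 110.2 CPM, which every mutant overlapped. The glial sums at day 10 were 553 to 629 CPM in H3.3H3.2 and 538 to 587 in OreR. The photoreceptor sums at day 1 were 315 to 329 CPM in H3.3null and 308 to 337 in OreR. The part of cell composition in the differences below was not tested, and in whole brains fewer cells of a type and less open chromatin per cell cannot be told apart. The labels do not say whether the 3 libraries of a group came from separate pools of flies, so p-values measure the spread between these libraries, which may be technical.

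An accessible peak lay at 18 of 23 receptor genes (78.3%) and at 11 of 27 neuropeptide genes (40.7%), against 6325 of 13922 protein-coding genes (45.4%). Neuropeptide genes are short, with a median window of 4.89 kb against 19.3 kb for receptor genes, and the share of genes with a peak rose with window length among all protein-coding genes. Among windows under 5 kb, 2 of 14 neuropeptide genes (14.3%) and 31.9% of protein-coding genes had a peak, and no receptor gene was that short. From 5 to 10 kb, 6 of 8 neuropeptide genes and 1 of 3 receptor genes had a peak, against 56.2% of protein-coding genes. All 9 receptor genes over 20 kb had one, as did 90.2% of protein-coding genes of that length. The density of peaks was 0.0751 per kb at neuropeptide genes, 0.0639 per kb at receptor genes and 0.105 per kb at protein-coding genes.

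**Figure D1:**
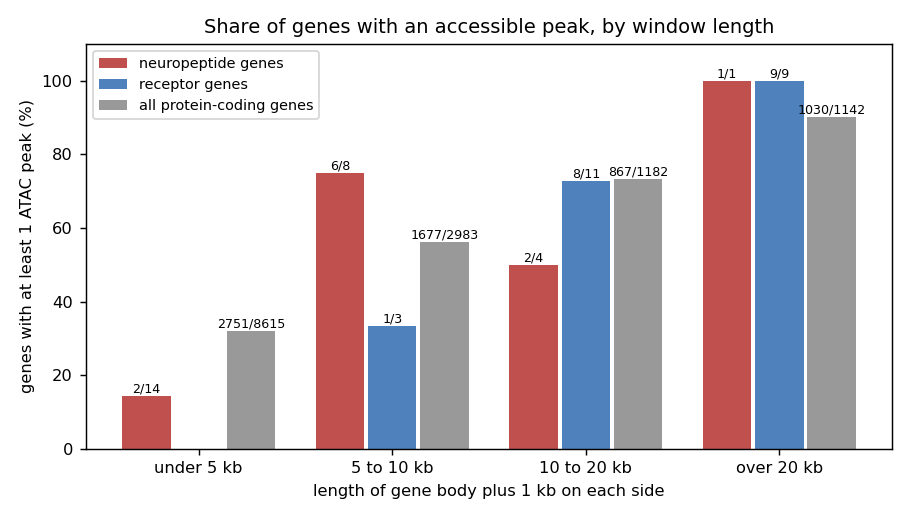
Percentage of genes with at least 1 ATAC peak in the gene body plus 1 kb on each side (y axis) by the length of that window (x axis), for neuropeptide genes, receptor genes and all protein-coding genes; the numbers above the bars are genes with a peak over all genes. Of the 14 neuropeptide genes under 5 kb only 2 had a peak, and all 9 receptor genes over 20 kb had one.

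The neuropeptide genes without a peak were AstA, Burs, CCAP, Crz, Dh31, Dh44, Dsk, ETH, Hug, Ilp2, Ilp3, Ilp5, Lk, Mip, NPF and SIFa, and the receptor genes without one were AkhR, AstA-R2, CrzR, Lgr3 and TkR86C. They include the insulin-like peptides of the brain's insulin-producing cells and peptides such as SIFamide and leucokinin that are made by very few neurons. These are examples, and whether the number of expressing cells goes with having a peak was not tested. ETH, which encodes the ecdysis-triggering hormones, lay 1087 bp from the nearest peak, and AstA-R2, a second allatostatin A receptor gene, 1155 bp. The farthest were Ilp5 at 29860 bp and Dh44, the gene for a corticotropin-releasing factor-like peptide, at 26901 bp. The peak table lists regions called by the authors, so a gene without a peak is one with no called region in its window, not one shown to be closed.

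Open chromatin per length of gene was highest at amn among neuropeptide genes and at SIFaR among receptor genes. In OreR at day 1, amn, which encodes a PACAP-like peptide needed for olfactory memory, had 79.4 ± 13.2 CPM per kb of window (SD, n = 3). It was followed by Ms (15.02 ± 2.41), which encodes the muscle-inhibiting peptide myosuppressin, and Nplp1 (14.04 ± 2.29), which encodes a precursor of several neuropeptides. The lowest neuropeptide genes with a peak, in CPM per kb, were sNPF (1.44 ± 0.20), encoding short neuropeptide F, Tk (4.55 ± 0.301), encoding the tachykinins, and CCHa2 (5.67 ± 0.0618), a nutrient-linked peptide. Among receptor genes on the same scale, SIFaR, the SIFamide receptor, had 26.5 ± 1.99, CCKLR-17D3, a drosulfakinin receptor, had 19.7 ± 1.09, and AstC-R1, an allatostatin C receptor, had 8.25 ± 1.39. The lowest receptor genes with a peak were CCAP-R (1.64 ± 0.137), Lkr, the leucokinin receptor (2.19 ± 0.131), and CCKLR-17D1, the other drosulfakinin receptor (2.35 ± 0.172). The 3 peaks of amn also lie inside the body of Hers, a gene that overlaps amn, so their counts cannot be given to either gene alone.

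The median level of the 46 peaks was 53.2 CPM over all libraries, 47.8 at neuropeptide genes and 55.7 at receptor genes, against 60.9 over all peaks. Their median width was 383 bp, against 455 bp. The lowest count in any library was 56, so none of the comparisons below rests on near-empty peaks. The centres of 27 peaks lay within 500 bp of an end of the gene, 13 lay deeper in the body and 6 in the flank, and the gene table gives no strand, so a transcription start could not be told from the far end of a gene. The windows of other genes were touched by 18 of the 46 peaks, 9 of the 14 at neuropeptide genes and 9 of the 32 at receptor genes.

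Across the 8 groups, most neuropeptide and receptor peaks did not pass the test for a difference, and those that did changed by less than 2-fold. In edgeR's quasi-likelihood test across all 11145 peaks, with Benjamini-Hochberg adjustment and a call at an adjusted p under 0.05, 14 of 46 peaks differed somewhere among the 8 groups (30.4%, against 38.4% of all peaks). These were 6 of 14 neuropeptide peaks (42.9%) and 8 of 32 receptor peaks (25%). Without the peaks shared with other genes, which are 9 of the 14 and 9 of the 32, the counts were 2 neuropeptide and 6 receptor peaks. Fewer peaks were left to count there, and the share among all unshared peaks was not computed. Against OreR of the same age, 12 of 46 peaks were called in at least 1 of the 6 mutant comparisons (26.1%, against 38.7% of all peaks), 5 of 14 at neuropeptide genes (35.7%) and 7 of 32 at receptor genes (21.9%). The difference between the classes was not tested, since the peaks of a gene share their source and the counts are small. The ratio of the highest to the lowest group mean was largest at amn (1.84 at peak 3, 1.79 at peak 2), AstA-R1 (1.79 at peak 4), Ms (1.60 at peak 1) and Pdfr (1.57 at peak 2), with peaks numbered along the chromosome. It was smallest at a SIFaR peak (1.11). All mutants of an age were set against the same 3 OreR libraries, so their comparisons are not independent of each other.

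**Figure D2:**
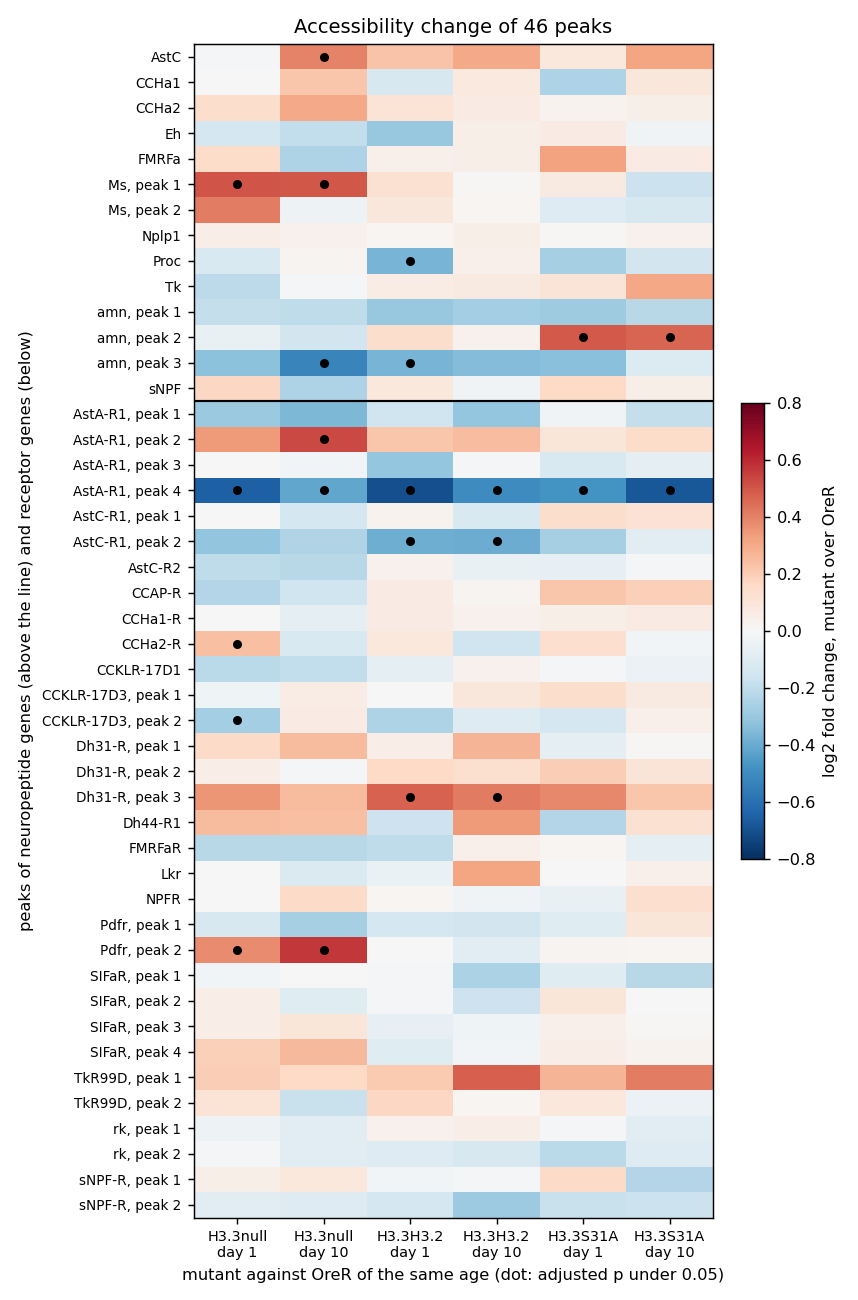
Fitted log2 fold change of each mutant over OreR of the same age (columns, 3 libraries a group) for the 46 peaks (rows, numbered along the chromosome within a gene; neuropeptide genes above the line, receptor genes below); red is more open in the mutant, blue less open, and a dot marks an adjusted p under 0.05. AstA-R1 peak 4 has a dot in all 6 columns, and the dots of Ms peak 1 and Pdfr peak 2 are in the H3.3null columns.

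Over the whole table, H3.3null differed from OreR at more peaks than the other mutants did. Of the 46 peaks, 5 were called between H3.3null and OreR at day 1, where 24.7% of all peaks were called. They were 3 higher peaks (14.1% of all peaks) and 2 lower (10.6%). At day 10 there were 6 calls (24.5% of all peaks), 4 higher (15.5%) and 2 lower (9%). For H3.3H3.2 the day 1 comparison gave 5 calls (11.1% of all peaks), 1 higher (6.94%) and 4 lower (4.21%). Its day 10 comparison gave 3 (10.7%), 1 higher (7.13%) and 2 lower (3.54%). For H3.3S31A there were 2 calls at day 1 (10.5% of all peaks), 1 higher (6.24%) and 1 lower (4.27%). The same split of 2 calls was seen at day 10 (10.2%), with 6.43% of all peaks higher and 3.77% lower. As shares of the 46 peaks these counts are 10.9% and 13.0% (H3.3null), 10.9% and 6.52% (H3.3H3.2) and 4.35% at both ages (H3.3S31A). Some peaks were called against OreR at both ages with the same sign. In H3.3null 2 of the 46 lay above OreR (4.35%, against 10.3% of all peaks) and 1 below (2.17%, against 5.20%). H3.3S31A had 1 above (2.17%, against 4.96%) and 1 below (2.17%, against 2.48%). H3.3H3.2 had 1 above (2.17%, against 5.40%) and 2 below (4.35%, against 2.44%). Only this last share exceeded that of all peaks, and the differences were not tested. The median log2 fold change of the 46 peaks lay between -0.06 and 0.02 in the 6 comparisons, and that of all peaks between -0.01 and 0.00.

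**Figure D3:**
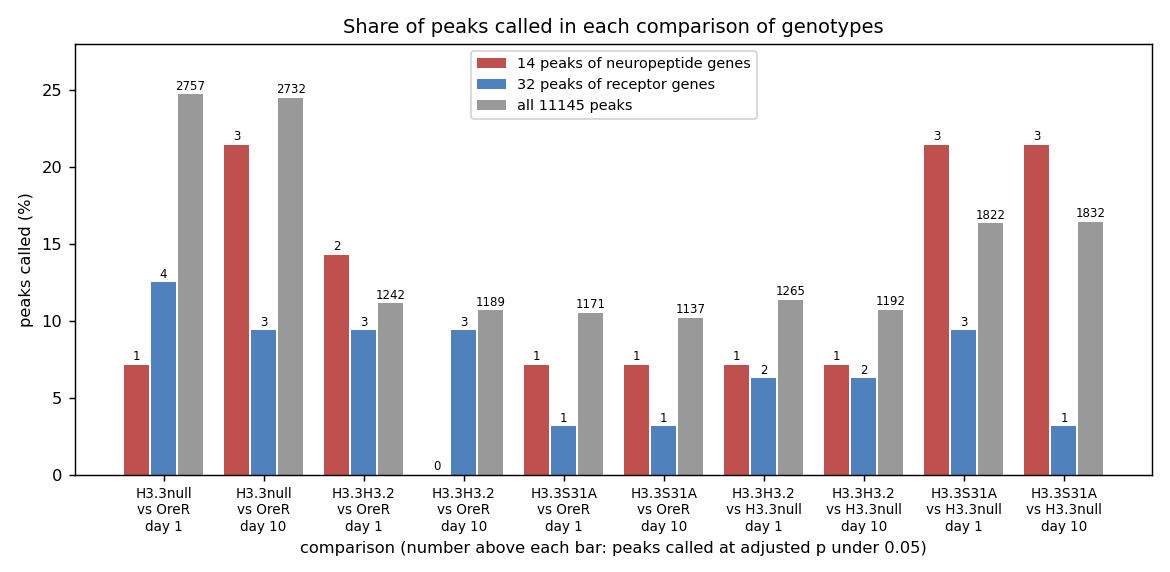
Percentage of peaks called at an adjusted p under 0.05 (y axis) in 10 comparisons of genotypes (x axis) for the 14 neuropeptide peaks, the 32 receptor peaks and all 11145 peaks; the number above each bar is the count of called peaks. H3.3null against OreR has the highest share over all peaks, 24.7% at day 1, where 1 neuropeptide peak and 4 receptor peaks were called.

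Among the neuropeptide genes, Ms was more open in H3.3null than in the other genotypes at both ages. Its peak 1, chr3R:24341268-24341679, sits at an end of Ms and within 1 kb of CG6432. The OreR libraries held 35.2, 41.5 and 46.7 CPM at day 1 and 52.4, 46.7 and 40.4 at day 10. H3.3null held 58.1, 58.2 and 58.8 at day 1 and 71.2, 62.0 and 63.9 at day 10. H3.3H3.2 held 39.3, 49.1 and 46.3 and then 46.1, 49.0 and 45.0, and H3.3S31A held 47.3, 37.9 and 44.5 and then 43.6, 42.7 and 36.7. At each age every H3.3null library lay above every library of the other 3 genotypes. Those overlapped each other, except that H3.3H3.2 lay above H3.3S31A at day 10. H3.3null exceeded OreR by a log2 fold change of 0.50 ± 0.12 at day 1 and 0.50 ± 0.12 at day 10 (SE; adjusted p = 0.00218 and 0.00191), and both calls held without each of the 6 libraries in turn. Over OreR, H3.3H3.2 had 0.12 and 0.01 and H3.3S31A had 0.07 and -0.17, and none was called. Peak 2 of Ms, 1095 bp farther on and within 1 kb of CG5746, was not called against OreR in any mutant, with log2 fold changes of 0.41 ± 0.17 and -0.04 ± 0.17 in H3.3null.

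At amn, peak 2 (chrX:19889067-19889691) was more open in H3.3S31A than in OreR at both ages. The OreR libraries held 71.5, 75.6 and 61.3 CPM at day 1 and 69.6, 52.8 and 58.4 at day 10. H3.3S31A held 97.9, 94.9 and 100.1 at day 1 and 86.0, 73.5 and 90.8 at day 10. H3.3null held 68.5, 69.9 and 61.7 and then 65.1, 47.6 and 51.3, and H3.3H3.2 held 78.0, 71.4 and 80.6 and then 67.3, 58.1 and 59.1. The H3.3S31A libraries were the highest at each age and did not overlap those of the other genotypes. Its log2 fold change over OreR was 0.49 ± 0.11 in young flies and 0.46 ± 0.12 at day 10 (adjusted p = 0.00204 and 0.00481). The day 1 call held without each library in turn, and the day 10 call was lost without OreR replicate 2 (0.38). Over H3.3H3.2 the differences were 0.35 ± 0.11 and 0.43 ± 0.12, and neither was called (adjusted p = 0.226 and 0.109).

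Peak 3 of amn, chrX:19889930-19890492, begins 239 bp after peak 2 at an end of the gene, and its libraries were highest in OreR at day 1. There OreR held 98.5, 83.7 and 79.7 CPM at day 1 and 76.1, 59.2 and 70.2 at day 10. H3.3null held 82.9, 67.4 and 58.4 and then 52.4, 39.9 and 49.8, and H3.3H3.2 held 67.9, 63.0 and 71.5 and then 56.4, 55.2 and 49.7. H3.3S31A held 64.0, 73.6 and 70.1 and then 55.0, 61.0 and 75.8. OreR and H3.3null libraries overlapped at day 1 and were separate at day 10. Against OreR it was lower in H3.3null at day 10 (log2 fold change -0.53 ± 0.13, adjusted p = 0.00253), a call that held without each library in turn. In H3.3H3.2 at day 1 it was lower by the test (-0.37 ± 0.12, adjusted p = 0.0481), but that call was lost in 5 of 6 fits that left out 1 library (-0.41 to -0.28 where lost), all except the fit without OreR replicate 3. In H3.3S31A its log2 fold changes were -0.33 ± 0.13 and -0.11 ± 0.13, neither called, where those of peak 2 were called and positive. The difference between the neighbouring peaks was not tested. Peak 1, chrX:19886830-19887764, the most open of the 3, was not called in any mutant against OreR (-0.30 to -0.19).

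The remaining neuropeptide calls against OreR were single ones. Proc, which encodes the muscle-stimulating peptide proctolin, fell in H3.3H3.2 at day 1 at chr2L:7871266-7871830. OreR held 117, 103 and 93.6 CPM there and H3.3H3.2 held 84.3, 82.8 and 74.2, without overlap. The log2 fold change was -0.37 ± 0.11 (adjusted p = 0.0145), and the call was lost without OreR replicate 1 (-0.29) or without H3.3H3.2 replicate 3 (-0.32). AstC, which encodes allatostatin C, was called higher in H3.3null at day 10 (0.40 ± 0.14, adjusted p = 0.037). Its OreR libraries held 33.2, 39.8 and 36.1 CPM and H3.3null 34.5, 54.7 and 53.5, which overlap, and the call was lost without OreR replicate 1 or 3 or H3.3null replicate 2 or 3 (0.30 to 0.39). AstC and peak 2 of Ms were named after their values were seen. The peaks of CCHa1, CCHa2, Eh, FMRFa, Nplp1, sNPF and Tk were not called in any mutant against OreR.

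Among the receptor genes, Pdfr was more open in H3.3null at both ages. Its peak 2, chrX:2567133-2567772, lies inside the gene body, 11188 bp from the nearer end, and touches no other gene's window. OreR held 79.9, 66.9 and 70.6 CPM at day 1 and 74.8, 71.5 and 68.2 at day 10. H3.3null held 100.9, 94.6 and 87.2 at day 1 and 100.5, 109 and 107 at day 10. H3.3H3.2 held 73.6, 75.8 and 68.2 and then 70.7, 60.5 and 70.9, and H3.3S31A held 71.0, 81.2 and 68.8 and then 75.8, 64.0 and 77.4. As at Ms, every H3.3null library lay above all libraries of the other genotypes of its age. H3.3null exceeded OreR by log2 fold changes of 0.38 ± 0.10 in young flies and 0.56 ± 0.10 at day 10 (adjusted p = 0.00436 and 3.75e-05), and both calls held without each library in turn. H3.3H3.2 had 0.00 ± 0.10 and -0.08 ± 0.10, and H3.3S31A had 0.02 ± 0.10 and 0.01 ± 0.10, none called. Peak 1 of Pdfr, 12998 bp away, had log2 fold changes of -0.13 ± 0.13 and -0.27 ± 0.14 in H3.3null and was not called. The nearest peak on the other side of peak 2, chrX:2581835-2582216, lies 14063 bp away and outside the gene's window. It was higher in H3.3null than in OreR at day 1 (0.40 ± 0.11, adjusted p = 0.00587), by about as much as peak 2, and was not called at day 10 (0.15 ± 0.11).

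At AstA-R1, which encodes a receptor for allatostatin A, one intragenic peak was lower than OreR in all 3 mutants at both ages. Peak 4, chrX:3650811-3651067, lies 15785 bp from the nearer end of the gene and in no other gene's window. OreR held 52.1, 49.8 and 39.7 CPM at day 1 and 45.4, 42.0 and 41.4 at day 10. H3.3null held 33.1, 30.3 and 26.4 and then 34.5, 31.3 and 30.7, and H3.3H3.2 held 29.0, 31.1 and 26.8 and then 25.5, 32.99 and 32.5. H3.3S31A held 26.1, 39.3 and 36.8 and then 30.8, 29.4 and 18.7. No mutant library reached the lowest OreR library of its age, and the 3 mutants overlapped each other. At day 1 the log2 fold changes of H3.3null, of H3.3H3.2 and then of H3.3S31A were -0.66 ± 0.16, -0.70 ± 0.16 and -0.48 ± 0.16 (adjusted p = 0.00148, 0.0012 and 0.0402). At day 10 they were -0.42 ± 0.16, -0.50 ± 0.16 and -0.68 ± 0.16 in the same order (adjusted p = 0.0496, 0.0302 and 0.00262). The calls in H3.3null at day 1, H3.3H3.2 at day 1 and H3.3S31A at day 10 held without each library in turn. The H3.3null call at day 10 was lost without any 1 of its 6 libraries (-0.47 to -0.37), the H3.3H3.2 call at day 10 without OreR replicate 1, 2 or 3 or H3.3H3.2 replicate 1 (-0.53 to -0.39), and the H3.3S31A call at day 1 without OreR replicate 1 or 2 or H3.3S31A replicate 1 (-0.44 to -0.31). Peak 3 of the gene ends 242 bp before it and was not called in any mutant, with values of 0.00 and -0.02 for H3.3null, -0.12 and -0.08 for H3.3S31A and -0.31 and -0.01 for H3.3H3.2. The next peak on the other side, chrX:3671585-3671821, 20518 bp away, was higher in H3.3null at day 1 (0.44 ± 0.17, adjusted p = 0.049) and was not called in the other 5 comparisons with OreR.

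**Figure D4:**
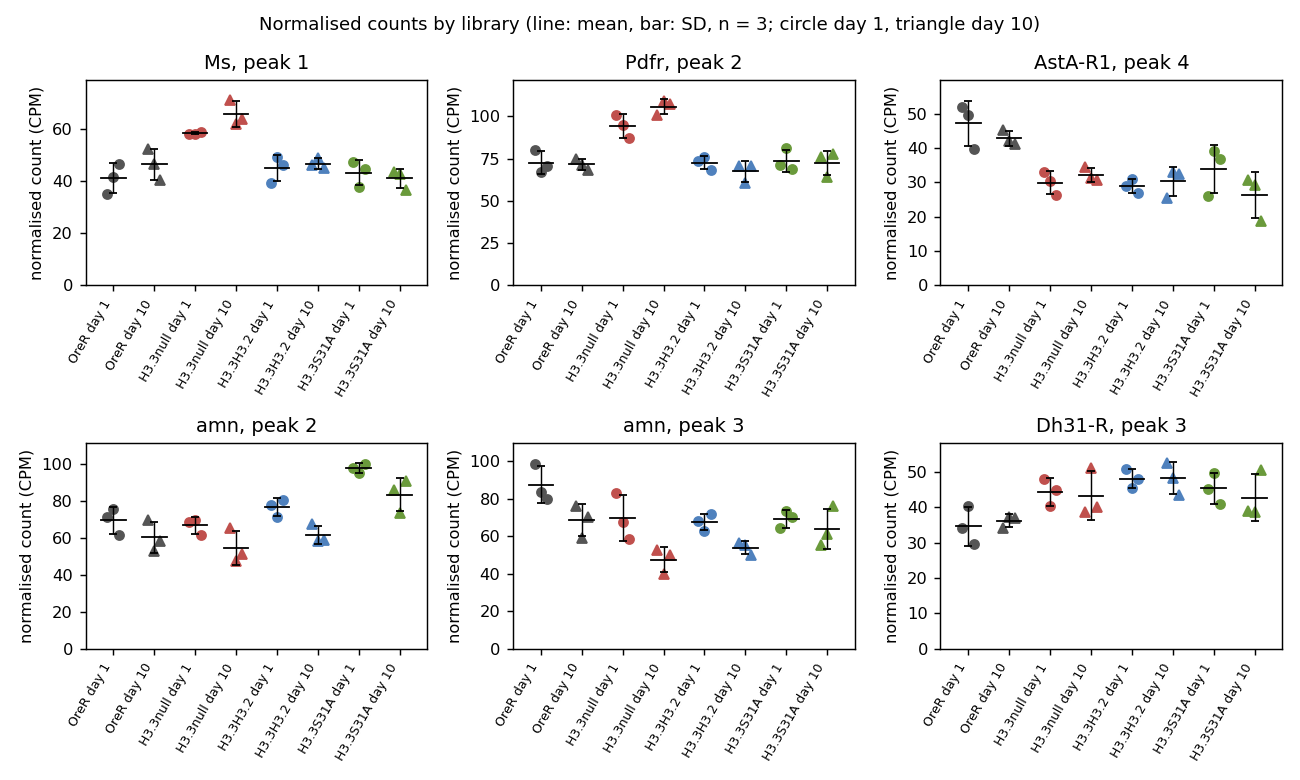
Normalised counts (CPM, y axis from 0) of each library in the 8 groups (x axis) for 6 peaks; points are libraries, circles at day 1 and triangles at day 10, the line is the mean and the bar the SD of 3 libraries. Within each age, H3.3null stands above the rest at Ms peak 1 and Pdfr peak 2, OreR above the rest at AstA-R1 peak 4 and H3.3S31A above the rest at amn peak 2.

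Dh31-R and AstC-R1 were called in H3.3H3.2 at both ages, with opposite signs. Dh31-R encodes a receptor for the calcitonin-like peptide DH31, and its peak 3, chr2R:13296256-13296530, is also within 1 kb of CG4734. OreR held 34.0, 40.3 and 29.4 CPM at day 1 and 34.2, 37.3 and 37.0 at day 10, and H3.3H3.2 held 50.7, 45.3 and 48.0 and then 52.5, 48.3 and 43.6. H3.3null held 48.0, 40.2 and 44.7 and then 38.5, 51.1 and 40.1, and H3.3S31A held 45.2, 49.6 and 41.0 and then 39.0, 38.7 and 50.4. The H3.3H3.2 libraries lay above OreR at both ages and among those of the other mutants. The log2 fold change was 0.47 ± 0.14 (adjusted p = 0.0151) and 0.41 ± 0.13 (adjusted p = 0.0406), while H3.3null had 0.35 and 0.25 and H3.3S31A 0.38 and 0.22, none called. The day 1 call was lost without OreR replicate 3 or H3.3H3.2 replicate 1 (0.37 to 0.43), and the day 10 call in 5 of 6 fits that left out 1 library (0.34 to 0.44), all except the fit without H3.3H3.2 replicate 3. Peak 2 of the gene, 167 bp away, had 0.16 and 0.13 in H3.3H3.2 and was not called.

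The calls at AstC-R1 and at 3 other receptor peaks were named after their values were seen. Peak 2 of AstC-R1, chr3L:18569459-18569837, in the gene body, had log2 fold changes of -0.39 ± 0.13 and -0.39 ± 0.13 for H3.3H3.2 at the 2 ages (adjusted p = 0.0376 and 0.0448). The libraries overlapped OreR at day 1 and not at day 10, the first call was lost without OreR replicate 1 or 3 or H3.3H3.2 replicate 2 or 3 (-0.42 to -0.24), and the second without any 1 of the 6 libraries (-0.43 to -0.32). Peak 2 of AstA-R1, at an end of the gene within 1 kb of CG2875, was higher in H3.3null at day 10 (0.53 ± 0.15, adjusted p = 0.00623), a call lost without OreR replicate 2 (0.36). In H3.3null at day 1, CCHa2-R, the receptor for the CCHamide-2 peptide, had 0.24 ± 0.09 (adjusted p = 0.0439), lost in 5 of 6 fits that left out 1 library (0.19 to 0.27), all except the fit without OreR replicate 3. CCKLR-17D3 peak 2 had -0.27 ± 0.10 in the same comparison (adjusted p = 0.0382), with libraries that overlap, and was lost without OreR replicate 1 or 3 or H3.3null replicate 1 or 2 (-0.27 to -0.20). The largest log2 fold change that missed the threshold in H3.3H3.2 was 0.48 ± 0.16 at day 10 (adjusted p = 0.0506), at peak 1 of TkR99D, a tachykinin receptor gene.

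At SIFaR, the most open receptor gene per length of window, none of the 4 peaks passed the test in any mutant against OreR. The 2 largest, chr3R:21288909-21289614 in the body and chr3R:21293740-21294488 at an end, had group means of 187 to 209.6 CPM and of 165 to 183 CPM. The log2 fold changes of all 4 peaks against OreR ran from -0.25 to 0.26. The peaks of CCAP-R, CCHa1-R, CCKLR-17D1, Dh44-R1, FMRFaR, Lkr, NPFR, rk, sNPF-R and TkR99D, and that of AstC-R2, were likewise not called against OreR.

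Set against each other, the mutants gave calls in the comparisons with H3.3null and none between H3.3H3.2 and H3.3S31A. H3.3H3.2 against H3.3null gave 3 calls at day 1 (11.4% of all peaks were called), all lower (6.44% of all peaks; 4.91% were higher). At day 10 it gave 3 (10.7%), 1 higher (3.64%) and 2 lower (7.05%). H3.3S31A against H3.3null gave 6 calls at day 1 (16.3% of all peaks), 2 higher (6.75%) and 4 lower (9.6%). At day 10 it gave 4 (16.4%), 2 higher (5.67%) and 2 lower (10.8%). H3.3S31A against H3.3H3.2 gave 0 calls at day 1 (0.458% of all peaks, 0.314% lower and 0.144% higher) and 0 at day 10 (0.395%, of which 0.332% lower and 0.0628% higher). DESeq2 also gave 0 there, and 1 and 5 of the 46 peaks had an unadjusted p under 0.05 in edgeR. Over all 11145 peaks, 902 and 974 had one. The comparisons of H3.3S31A with the other mutants were added after the data were seen.

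Pdfr peak 2 and Ms peak 1 were called in both comparisons with H3.3null at both ages. Pdfr peak 2 was lower in H3.3H3.2 by -0.38 ± 0.10 (adjusted p = 0.00879) and -0.65 ± 0.10 (adjusted p = 1.18e-05) at day 1 and day 10, and in H3.3S31A by -0.36 ± 0.10 (adjusted p = 0.0109) and -0.55 ± 0.10 (adjusted p = 9.99e-05). Ms peak 1 was lower in H3.3H3.2 by -0.38 ± 0.12 (adjusted p = 0.0348) and -0.49 ± 0.12 (adjusted p = 0.00501), and in H3.3S31A by -0.43 ± 0.12 (adjusted p = 0.0122) and -0.67 ± 0.12 (adjusted p = 0.000112). These comparisons share the H3.3null libraries. The day 10 calls held without each library in turn. At day 1 the Pdfr calls were lost without H3.3null replicate 1 or H3.3H3.2 replicate 3 (-0.33) and without H3.3null replicate 1 or H3.3S31A replicate 1 or 3 (-0.33 to -0.30). The Ms calls at day 1 were lost in all fits except that without H3.3H3.2 replicate 2 (-0.40 to -0.29) and without H3.3S31A replicate 2 (-0.35).

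H3.3S31A exceeded H3.3null at amn. Peak 2 had log2 fold changes of 0.55 ± 0.11 and 0.61 ± 0.12 at the 2 ages (adjusted p = 0.000438 and 0.000203), and both held without each library in turn. Peak 3 had 0.42 ± 0.14 at day 10 (adjusted p = 0.0277), lost without H3.3null replicate 2 or H3.3S31A replicate 3 (0.29 to 0.31).

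The remaining calls between mutants were at receptor genes and at peak 2 of Ms. Dh44-R1, a receptor for the corticotropin-releasing factor-like peptide DH44, held 41.0, 44.0 and 42.5 CPM in H3.3null at day 1, 30.8, 30.5 and 29.6 in H3.3S31A and 31.3, 33.1 and 31.2 in H3.3H3.2. H3.3null was the higher group without overlap in both comparisons, while OreR held 32.6, 32.5 and 41.9, overlapped H3.3null and H3.3H3.2 and lay above H3.3S31A. The log2 fold change was -0.41 ± 0.13 in H3.3H3.2 (adjusted p = 0.0288; lost in all fits that left out 1 library except that without H3.3H3.2 replicate 2, -0.44 to -0.39) and -0.49 ± 0.13 in H3.3S31A (adjusted p = 0.00738; held without each library). Lkr at day 10 held 35.8, 32.2 and 34.5 CPM in H3.3null and 40.1, 48.5 and 49.7 in H3.3H3.2, without overlap. Its log2 fold change was 0.43 ± 0.12 (adjusted p = 0.0162), lost without H3.3null replicate 2 or H3.3H3.2 replicate 2 or 3 (0.37 to 0.39). CCAP-R, the receptor for crustacean cardioactive peptide, was higher in H3.3S31A than in H3.3null at day 1 (0.46 ± 0.12, adjusted p = 0.0084). Its libraries held 75.3, 67.6 and 56.6 against 48.0, 57.7 and 40.0 CPM, which overlap, and the call was lost without H3.3null replicate 3 or H3.3S31A replicate 1 (0.33 to 0.35). Peak 2 of Ms was lower in H3.3S31A than in H3.3null at day 1 (-0.51 ± 0.17, adjusted p = 0.0398), lost in all fits that left out 1 library except that without H3.3null replicate 1 (-0.54 to -0.37).

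From day 1 to day 10, 1 of the 46 peaks passed the test in any genotype. That was amn peak 3 in H3.3null, which fell from 69.6 ± 12.4 to 47.4 ± 6.61 CPM (SD, n = 3; log2 fold change -0.55 ± 0.13, adjusted p = 0.0337; 0.924% of all peaks were called with age in H3.3null, 0.538% lower and 0.386% higher). Its libraries at the 2 ages did not overlap, and the call was lost in 5 of 6 fits that left out 1 library (-0.62 to -0.41), all except the fit without the day 1 replicate 3. The log2 fold change of the same peak with age was -0.35 ± 0.13 for OreR, -0.12 ± 0.13 for H3.3S31A and -0.32 ± 0.13 for H3.3H3.2, none called. With age there were 0 calls among the 46 peaks in OreR (1.91% of all peaks, 0.718% higher and 1.19% lower), in H3.3H3.2 (0.61%, 0.0897% higher and 0.52% lower) and in H3.3S31A (0.987%, 0.188% higher and 0.799% lower). DESeq2 also gave 0 in these genotypes, and 5, 7 and 4 of the 46 peaks had an unadjusted p under 0.05 in edgeR. The age effect of a mutant differed from that of OreR at 0 of the 46 peaks (0% of all peaks) in each of the 3 interaction tests in edgeR and in DESeq2, with 4, 3 and 1 peaks at an unadjusted p under 0.05. For age and interaction, the share of all peaks at an unadjusted p under 0.05 is not given here. These unadjusted counts alone therefore do not set the 46 peaks apart.

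The summed accessibility of the neuropeptide peaks, and that of the receptor peaks, had a lower mean at day 10 than at day 1 in each genotype. The 14 neuropeptide peaks summed to 1088 ± 82.0 CPM in OreR at day 1 (SD, n = 3) and 987 ± 33.5 at day 10, and to 1053 ± 50.1 and 953 ± 24.6 in H3.3null. H3.3H3.2 had sums of 1007 ± 22.2 and 947 ± 2.77, and H3.3S31A had 1043 ± 23.9 and 979 ± 50.4. Libraries of the 2 ages were separate in H3.3H3.2 and in H3.3null and overlapped in H3.3S31A. In OreR they were barely separate, with 1016.3 CPM in the lowest day 1 library and 1015.6 in the highest day 10 library. Without amn the ages overlapped in every mutant. In OreR they stayed separate without amn, with 606 to 623 CPM at day 1 and 553 to 577 at day 10. The 3 amn peaks made up much of the sum, 473 ± 78.4 CPM in OreR at day 1, and the other 11 peaks summed to 616 ± 8.6 at day 1 and 567 ± 12.4 at day 10 in OreR. The 32 receptor peaks summed to 2245 ± 101 and 2188 ± 11.9 CPM in OreR at the 2 ages, and to 2246 ± 66.8 and 2181 ± 64.8 in H3.3null. For H3.3H3.2 the sums were 2169.6 ± 51.3 and 2128 ± 42.1, and for H3.3S31A they were 2258 ± 114 and 2173 ± 104. Receptor sums overlapped between the ages in each genotype. The median log2 fold change with age of the 14 neuropeptide peaks was -0.14 for OreR, -0.16 for H3.3null, -0.11 for H3.3S31A and -0.08 for H3.3H3.2. In the same order it was -0.03, -0.03, -0.04 and -0.03 for the 32 receptor peaks and -0.01, 0.01, 0.00 and 0.00 for all peaks. The 3 amn peaks and Nplp1 had a negative log2 fold change with age in all 4 genotypes, as had 8 of 32 receptor peaks and 14.2% of all peaks. The neuropeptide sum was 48.5% ± 2.77 of the receptor sum in OreR at day 1 and 43.7% to 46.9% in the means of the other 7 groups.

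**Figure D5:**
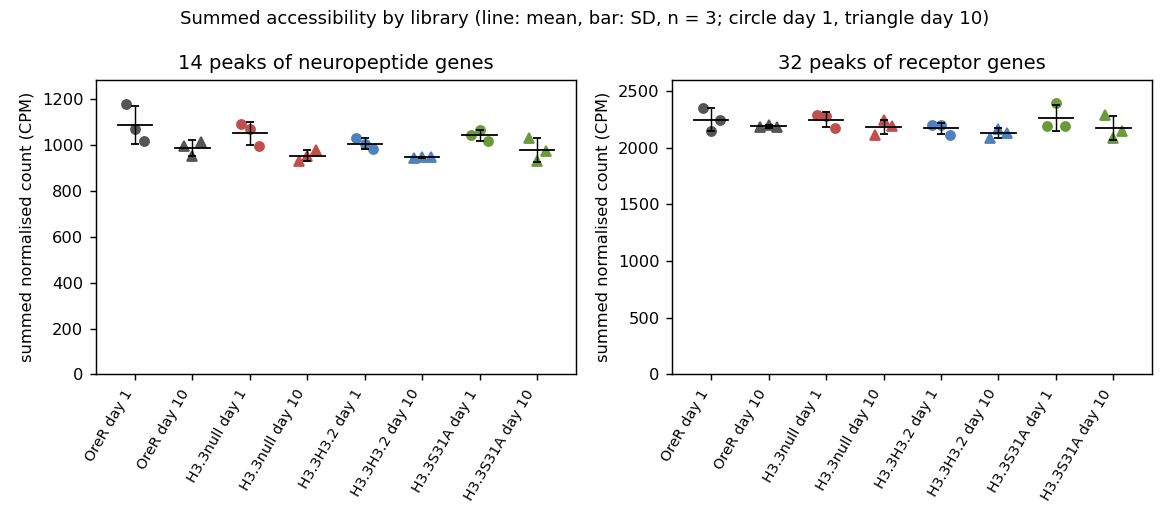
Summed normalised counts (CPM, y axes from 0) of the 14 neuropeptide peaks (left) and the 32 receptor peaks (right) per library in the 8 groups (x axis); circles are day 1, triangles day 10, the line is the mean and the bar the SD of 3 libraries. The group means run from 947 to 1088 CPM at neuropeptide genes and from 2128 to 2258 CPM at receptor genes.

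Genes that process and release neuropeptides, taken from a list that is no part of the 50 genes, had calls in all 3 mutants, in shares above the background of all peaks for H3.3null and close to or below it for the replacement mutants. All 11 such genes found in the gene table had peaks, 24 in all. Against OreR, H3.3null gave 6 higher and 3 lower peaks of these 24 in young flies (37.5%, against 24.7% of all peaks), and at day 10 it gave 6 higher and 2 lower (33.3%, against 24.5%). H3.3H3.2 gave 3 higher peaks at each age (12.5%, against 11.1% and 10.7% of all peaks). H3.3S31A gave 2 and then 1 higher (8.33% and 4.17%, against 10.5% and 10.2%), and neither gave a lower one. The difference between this list and the neuropeptide genes was not tested, and fits without single libraries were not run for it. The most changed was IA-2, which encodes a dense-core vesicle protein: its mean at chr2L:1007066-1008400 was 114 ± 10.5 CPM for OreR and 295 ± 15.8 for H3.3null at day 1 (SD, n = 3). Over OreR of that age the log2 fold change was 1.37 ± 0.09 for H3.3null (adjusted p = 2.69e-14), 0.35 ± 0.09 for H3.3S31A (adjusted p = 0.00794) and 0.57 ± 0.09 for H3.3H3.2 (adjusted p = 1.19e-05). At amon, which encodes the prohormone convertase that cleaves neuropeptide precursors, the mean at chr3R:26697276-26697556 was 32.4 ± 6.8 and then 41.5 ± 1.89 CPM for OreR, and 19.1 ± 2.1 and then 19.8 ± 4.1 for H3.3null. The fall in H3.3null was -0.77 ± 0.17 and -1.09 ± 0.17 on the log2 scale (adjusted p = 0.000774 and 4.45e-06), with values between -0.11 and 0.11 in the other mutants, none called. At Cadps, which primes dense-core vesicles for release, the peak chr4:1272197-1272526 had log2 fold changes of 0.77 ± 0.15 and 0.89 ± 0.16 for H3.3null and 0.52 ± 0.16 and 0.76 ± 0.16 for H3.3H3.2, all called. Those of H3.3S31A were 0.16 ± 0.16 and 0.29 ± 0.16, not called.

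Neuropeptide and receptor genes outside the set were counted in the same way. Of 21 other neuropeptide genes in the table, 4 had a peak (5 peaks), and Pdf, the ligand of Pdfr, had none. The calls against OreR among them were at Nplp3, lower at day 1 for H3.3null (-0.73 ± 0.18, adjusted p = 0.00183) and also for H3.3H3.2 (-0.70 ± 0.18, adjusted p = 0.00464), at a peak that touches the windows of several genes. In each of these comparisons that is 1 of 5 peaks (20%), against 24.7% and 11.1% of all peaks. Of 17 other receptor genes, 12 had a peak (21 peaks), and 1 to 3 of these were called in each comparison of a mutant with OreR. These counts are 4.76% to 14.3% of the 21 peaks, and lay below the share of all peaks in each comparison except H3.3S31A at day 1 (14.3%, against 10.5%). Proc-R, the proctolin receptor gene, was lower at chrX:4716959-4717340 in H3.3S31A (-0.60 ± 0.14 and -0.64 ± 0.14) and H3.3H3.2 (-0.66 ± 0.14 and -0.44 ± 0.14) at both ages, with adjusted p from 0.000765 to 0.0307. In H3.3null its log2 fold changes were -0.17 ± 0.14 and 0.01 ± 0.14, not called. H3.3null lay above both at this peak in the direct comparisons, with H3.3H3.2 lower by -0.49 ± 0.14 and -0.45 ± 0.14 and H3.3S31A by -0.43 ± 0.14 and -0.65 ± 0.14 (adjusted p from 0.000999 to 0.0354).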

How the data were processed

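The authors deposited 1 table of raw read counts over a single set of 11145 peaks for the 24 libraries, with no normalisation, per the file headers. The submitters' processing notes name dm6, STAR 2.7.7a, SAMtools 1.9, bedtools 2.26, deepTools 3.2.0, featureCounts, Subread 2.0.1 and DESeq2 1.34.0, without their roles. The peak caller, duplicate handling and any shift of reads for the transposase are not given in the sources used here. A single shared peak set can miss sites open in few cells, and the labels' extraction text describes RNA work on 8 brains although the labelled molecule is genomic DNA. Whether start coordinates count from 0 or 1 is not stated.

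Gene bodies came from the RefSeq Release 6 table. Counts were fitted in edgeR 4.0.16 (R 4.3.3, limma 3.58.1) with TMM factors and 1 coefficient per group over all 24 libraries (16 residual degrees of freedom, biological coefficient of variation 8.96%). filterByExpr removed 0 peaks. The fit was also run on counts simulated with the spread it had estimated from these data. That run checks the code and cannot show the error rate in the real counts. Quasi-likelihood p-values were adjusted by Benjamini-Hochberg over all peaks within each of 16 comparisons of 2 groups, 3 interactions and a test across the 8 groups on 7 degrees of freedom. CPM used library totals of 3021672 to 4890579 counts multiplied by TMM factors of 0.970 to 1.019. At the 46 peaks the standard error of log2 fold changes had medians of 0.12 to 0.13. Counts carry no molecular identifiers. DESeq2 1.42.0 and the other alternatives are in the closing section.

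Peaks named with values in each library are those called at both ages without overlap of libraries, the smallest p per class and direction in each comparison, age calls, and genes with the 3 highest and 3 lowest CPM per kb in each class. The members, lists and rules were chosen with earlier results of these data known. Of the listed genes, NTL, Gpa2, torso and Cpe did not match the gene table. Photoreceptor marker genes had peaks at 2 of 5 genes. Sequences and the planned search of promoters for motifs were not used here.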

Additional observations from a re-analysis of the deposited data

Results flagged for a closer look

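At 3 peaks the mutants differed from each other in a direct test, in the same direction at both ages. The share of all peaks that meet this rule was not counted. In single comparisons with H3.3null, 10.7% to 16.4% of all peaks and 6.52% to 13.0% of the 46 peaks were called. Pdfr peak 2 was lower in H3.3H3.2 than in H3.3null by log2 fold changes of -0.38 at day 1 and -0.65 at day 10, and lower in H3.3S31A than in H3.3null by -0.36 and -0.55. Ms peak 1 was lower in H3.3H3.2 than in H3.3null by -0.38 and -0.49, and lower in H3.3S31A than in H3.3null by -0.43 and -0.67. Peak 2 of amn was higher in H3.3S31A than in H3.3null by 0.55 and 0.61. Each comparison within an age uses the same 3 H3.3null libraries, each group has 3 libraries, and the peaks of Ms and amn also touch CG6432 and Hers.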

How the results depend on the processing

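None of the 40 calls at single peaks changed direction under an alternative; 16 were kept in all alternatives run and 24 were lost in at least 1. With a further threshold of 1 on the absolute log2 fold change there were 0 calls in each comparison of 2 groups (the test across 8 groups has no fold change). Keeping only peaks in no other gene's window removed 18 of the 46 peaks, among them 9 of the 14 neuropeptide peaks. That left 2 and 3 calls for H3.3null against OreR at the 2 ages, 1 and 1 for H3.3S31A, and 2 for H3.3H3.2 at day 1. It left 3 and 1 in H3.3S31A against H3.3null, 0 with age in H3.3null, and 8 across the 8 groups, 2 of them at neuropeptide genes. Fitting only the compared groups gave 3 calls for H3.3null at day 1, 7 for H3.3H3.2 at day 10 and 1 for H3.3S31A at day 1. The causes were not tested. Shares of all peaks called under the alternatives of this section are not given here. The counts under them therefore cannot be compared with the whole table.

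Leaving out 1 library at a time gave 3 to 7 and 4 to 6 calls for H3.3null against OreR at the 2 ages, 1 to 3 and 1 to 3 for H3.3S31A, and 2 to 5 and 0 to 2 for H3.3H3.2. It gave 0 to 4 and 2 to 3 in H3.3H3.2 against H3.3null, 3 to 5 and 3 to 7 in H3.3S31A against H3.3null, 0 to 1 with age in H3.3null, and 10 to 15 across the 8 groups (4 to 7 at neuropeptide genes and 6 to 8 at receptor genes).

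With the replicate number as a block, 0 of the 40 calls were lost, and the counts were 6 and 6 for H3.3null, 2 and 2 for H3.3S31A, 5 and 4 for H3.3H3.2, with 15 across the 8 groups. The numbers share no stated source: deviations of same-numbered libraries correlated at -0.394 to 0.39 (median -0.00697, 84 pairs). Summed accessibility per kb was 1.35 CPM higher at neuropeptide than at receptor genes in OreR at day 1, but the median over genes was lower by -3.85, since 16 of 27 neuropeptide genes have no peak. The 3 amn peaks, which also lie in Hers, held 473 of the 1088 CPM of the neuropeptide sum in that group. The difference per kb without amn was not computed. DESeq2's test, its size factors, upper-quartile factors, no filter, a minimum of 100 counts, the gene body alone, 2 kb margins and leaving out 2R kept each count within 1.5 times. The smallest change called at these peaks was 0.24 on the log2 scale, at CCHa2-R, and larger ones were missed. An example is 0.48 at TkR99D peak 1 in H3.3H3.2 at day 10, so a peak not called is not shown to be unchanged.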
